A study of Homo sapiens with 26 samples.

Results

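TMOD3, GAS6 and OSBPL3 are 3 genes whose bodies hold the H3K27ac regions with the smallest p-values for a rise in rank after 10 h of Nutlin-3a in wild-type HCT116 cells. By size of the rise TMOD3 was first, and regions of other genes rose more than those of GAS6 and OSBPL3. The data are ChIP-seq peak lists of H3K27ac, histone H3 acetylated at lysine 27, and of H3K4me1, histone H3 monomethylated at lysine 4. All peaks overlapping 1 of these genes or the 50 kb to either side of it (GRCh37) were taken as members. Peaks of one mark were first merged across lists into regions where they overlapped. That gave 55 of 87570 H3K27ac regions, 14 at TMOD3, 28 at GAS6 and 13 at OSBPL3. It also gave 58 of 110269 H3K4me1 regions, 15 at TMOD3, 19 at GAS6 and 24 at OSBPL3.

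HCT116 is a human colorectal carcinoma line, and Nutlin-3a is a small molecule that binds and blocks the ubiquitin ligase HDM2. The series holds 26 samples, of which 10 inputs were not analysed here and 16 gave one peak list each. Wild-type HCT116 cells (WT) were treated with the vehicle DMSO (called 0 h) or with Nutlin-3a for 1 h or 10 h, with 2 H3K27ac and 2 H3K4me1 lists per time. The second line, HCT116_RAD21 in the labels and here the RAD21 line, gave 2 H3K27ac lists at 0 h and 2 at 1 h. Per the study's methods the RAD21 alleles of that line, which encode a subunit of the cohesin ring, carry an auxin-inducible degron. The protein was removed with 5-Ph-IAA before Nutlin-3a was added. The labels of these lists name DMSO or Nutlin-3a and not the degron ligand. No RAD21 list at 10 h and no H3K4me1 list of the RAD21 line was analysed here. The titles mark replicates as BR1 and BR2, and the study speaks of biological replicates without saying here whether they were separate cultures. A p-value measures the spread between these lists.

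H3K27ac is laid down by acetyltransferases such as p300 and CBP and marks promoters and enhancers that are active. H3K4me1 is broader, marks enhancers both primed and active, and is depleted at the centre of active promoters. TMOD3 encodes tropomodulin 3, which caps the pointed ends of actin filaments. GAS6 encodes the secreted vitamin K-dependent ligand of the receptor tyrosine kinases TYRO3, AXL and MERTK. OSBPL3 encodes an oxysterol-binding-protein-related protein that exchanges lipids at contacts between the endoplasmic reticulum and the plasma membrane.

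Each gene was described by its lead region, the internal H3K27ac region with the largest 10 h rise, and by the region at its own promoter. The TMOD3 gene (ENSG00000138594.14_7) covers chr15:52121825-52239492 on the plus strand. Its lead region, chr15:52154999-52158709, starts 33.1 kb downstream of the transcription start site and holds an exon of the gene and the introns beside it. The GAS6 gene (ENSG00000183087.15_8) covers chr13:114523522-114567049 on the minus strand. Its lead region, chr13:114539475-114544930, lies 22.1 to 27.6 kb downstream of the start over exons and introns of GAS6, and also over exons of the antisense gene GAS6-AS1. The OSBPL3 gene (ENSG00000070882.13_15) covers chr7:24836159-25021253 on the minus strand. Its lead region, chr7:25009373-25013665, is intronic and lies 6.13 to 10.4 kb downstream of the start.

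The AP-1 motif, bound by FOS and JUN dimers, occurs in many enhancers. It was sought in the 3 lead regions on GRCh37 as TGANTCA, a pattern that leaves the central base free. A match therefore need not be an AP-1 site. In the windows below the central base of the match is G at TMOD3 and GAS6 and A at OSBPL3. Each window below is 201 bp of the plus strand, was centred on the match nearest the summit of the WT 10 h replicate 1 peak and overlaps no annotated exon, so that the intronic sequence of each lead region can be seen. It holds a match by that choice. The capitals mark the match, and the pattern was searched on both strands.
TMOD3, chr15:52156766-52156966: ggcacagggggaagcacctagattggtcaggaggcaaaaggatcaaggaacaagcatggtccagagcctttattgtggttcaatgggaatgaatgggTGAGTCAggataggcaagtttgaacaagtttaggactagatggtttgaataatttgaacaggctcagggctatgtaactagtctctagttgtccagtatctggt
GAS6, chr13:114540748-114540948: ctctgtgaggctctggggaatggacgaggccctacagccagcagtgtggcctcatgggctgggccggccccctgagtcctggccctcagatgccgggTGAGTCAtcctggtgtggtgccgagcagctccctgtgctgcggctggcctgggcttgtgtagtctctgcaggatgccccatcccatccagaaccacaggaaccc
OSBPL3, chr7:25011898-25012098: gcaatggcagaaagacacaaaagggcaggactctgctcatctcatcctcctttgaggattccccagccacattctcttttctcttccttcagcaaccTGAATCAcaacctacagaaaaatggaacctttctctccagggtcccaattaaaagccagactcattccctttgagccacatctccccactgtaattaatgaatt

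The window centre lay 305 bp from the summit at TMOD3, 310 bp at GAS6 and 1203 bp at OSBPL3. Over a whole lead region, TMOD3 held 2 matches to the pattern, GAS6 1 and OSBPL3 1. Windows of the same length at the 18757 H3K27ac regions called in all 10 lists held at least 1 match in 68.2%, 80.2% and 72.9% of cases, so a match was common and is a description only. The GC content of the lead regions was 42.5%, 62.8% and 40.8%, beside a median of 52.6% over all regions.

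The peak lists hold no read counts, so the depth of a library is unknown and a region's strength was read as its rank within a list. The percentile given below is that rank, by the highest −log10 p-value in the region, among all regions called in the list. Lists with more weak peaks place the same region higher, and the WT H3K27ac lists held 33976 and 32739 peaks at 0 h but 49127 and 46638 at 10 h, so percentiles are read beside the fitted change. Changes were fitted on normal scores of the rank (a standard normal scale) with limma, over the 18757 H3K27ac or 60476 H3K4me1 regions called in every list of the mark. A change of 1 is therefore 1 SD of the ranks. The 3 genes had been chosen on the 10 h against 0 h change in WT, so that change is given as a description with no test, as are the other contrasts that use the WT 0 h lists. At the lead regions the change was 2.70 ± 0.188 for TMOD3, 1.59 ± 0.117 for GAS6 and 1.57 ± 0.128 for OSBPL3. TMOD3 stood 1st of 18757 regions by size of change. GAS6 stood 70th and OSBPL3 75th, and by the p-value the 3 stood 1st, 2nd and 3rd. That p-value uses a spread pooled over all 10 lists, those of the RAD21 line included, and in a fit of the 6 WT lists alone, chosen after seeing the data, the 3 stood 1st, 6th and 7th. Just outside by p-value among internal regions were those of PRAG1 (2.39), DCUN1D3 with ERI2 (1.36) and FHL2 (1.45).

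The H3K27ac lists were not all alike. In the lists of both WT 0 h replicates and of WT 1 h replicate 1 the peak names lack the word input, which the names in the other 7 H3K27ac lists and all 6 H3K4me1 lists carry. The local background of the peak caller, recovered from fold and p-value, had a median of 8.33 to 11.7 over 2000 peaks of each of these 3 lists, beside 2.83 to 4.31 in the other 7. In the 3 lists it also climbed with peak strength, to 25.2 to 40.8 in the strongest 10% of peaks. At the lead regions it was 10.8 to 13.8 for TMOD3, 24.6 to 30.5 for GAS6 and 12.8 to 14.7 for OSBPL3 in the 3 lists, and 2.35 to 6.41 at all 3 loci in the other 7. Time after Nutlin-3a and the form of the peak names cannot be told apart between WT 0 h and WT 10 h. WT 1 h replicate 2 shares the form of the 10 h lists, and the lead percentiles in that list were below both 10 h lists at all 3 loci. The lead regions were chosen for their rise at 10 h, so that order was favoured by the choice and does not tell time and name form apart. Promoter H3K27ac of the epithelial genes CDH1, EPCAM and KRT18 was called in all 10 lists, at percentiles of 61.4 to 96.8. That of the mesenchymal gene ZEB1 was also called in all 10, at 74.9 to 90.2, and that of VIM in 7.

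**Figure D1:**
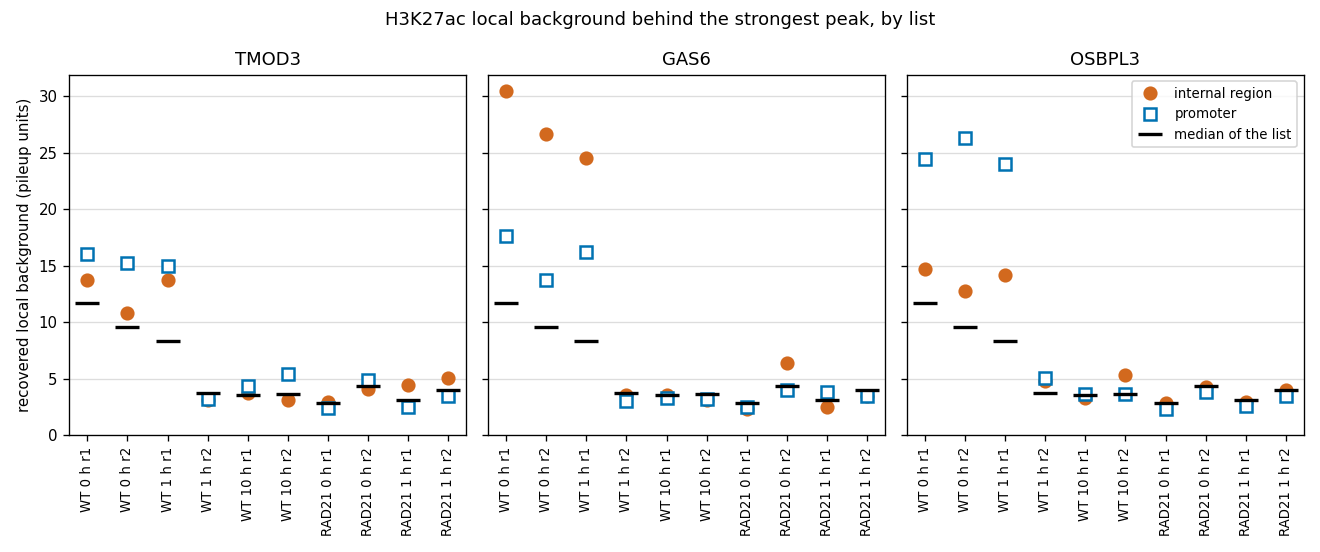
Local background (pileup units, recovered from fold and −log10 p) at the lead and promoter regions of the 3 genes and the median of each list, for the 10 H3K27ac lists. The 3 lists whose peak names lack the word input lie above the other 7 at all 6 regions.

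At TMOD3 the internal region climbed from the low end of the lists towards the level of the gene's own promoter. Its percentile was 11.3 and 17.1 in the 2 WT lists at 0 h, 48.4 and 65.3 at 1 h and 83.0 and 81.4 at 10 h. The RAD21 line had it at 51.3 and 58.0 at 0 h and at 57.9 and 59.7 at 1 h. The groups of WT lists did not overlap in time, and all 4 lists of the RAD21 line lay within the span of the 2 WT lists at 1 h. Ranked among the 18757 common regions alone, it was at percentile 0.419 and 1.11 at 0 h, 23.0 and 33.2 at 1 h and 59.9 and 58.8 at 10 h in WT, and the RAD21 line at 0 h, with 14.8 and 19.3, lay below both WT lists at 1 h. The −log10 p of the peak was 5.69 and 6.60 at 0 h, 22.5 and 38.8 at 1 h and 127 and 124 at 10 h in WT. The peak also widened in WT, covering 23.0% and 16.7% of the region at 0 h and 88.7% and 85.6% at 10 h. Peaks covered more sequence over the whole lists too, 31.0 and 30.7 Mb at 0 h and 66.6 and 64.3 Mb at 10 h, and the TMOD3 promoter peak went from 34.8% and 36.0% of its region to 55.9% and 51.9%. On the score scale the WT change was 1.87 ± 0.188 (SE) at 1 h.

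The TMOD3 promoter region, chr15:52120474-52123713, was high throughout. Its percentile in WT was 83.3 and 83.5 at 0 h, 90.5 and 90.6 at 1 h and 86.2 and 84.9 at 10 h, and in the RAD21 line 84.6 and 83.9 at 0 h and 94.3 and 93.6 at 1 h. Among the common regions WT had it at 73.6 and 74.5 before treatment and lower, at 67.5 and 66.5, after 10 h, a fitted change of -0.21 ± 0.111, so the direction at 10 h is opposite to that of the percentiles within whole lists. By those percentiles the lead region lay 71.9 and 66.5 percentile points under the promoter in WT at 0 h and 3.23 and 3.48 points under it at 10 h. Without Nutlin-3a it lay 33.3 and 25.9 points under the promoter in the RAD21 line, and after 1 h 36.4 and 33.9 points. At 1 h the WT lists had it 42.1 and 25.2 points under, a span that holds both values of the RAD21 line at that time.

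The RAD21 line at 1 h against 0 h used none of the lists of the contrast that chose the genes, and its change was tested. Its SE is not independent of the choice, because the spread pooled over the 10 lists also entered the p-value by which the genes were chosen, and the p-values may be too small for that reason. With the 4 RAD21 lists fitted alone, an alternative chosen after seeing the data, the changes at the GAS6 and OSBPL3 lead regions were still called (adjusted p = 5.31e-06 and 1.11e-06, limma) and that at TMOD3 was not (adjusted p = 0.279, limma). Over all regions 27.7% were called in that contrast with limma (adjusted p under 0.05), 14.4% higher and 13.4% lower. The TMOD3 lead region changed by 0.23 ± 0.188, which did not pass (adjusted p = 0.388, limma). The promoter rose by 0.69 ± 0.111 (adjusted p = 0.000634, limma). The gap between the lead region and the promoter changed by -0.46 ± 0.245 and did not pass either (adjusted p = 0.197, limma, where 19.7% of 3370 such pairs were called). At 1 h the RAD21 line minus WT was -0.14 ± 0.188 at the lead region (adjusted p = 0.672, limma) and 0.22 ± 0.111 at the promoter (adjusted p = 0.201, limma), in a contrast that called 11.8% of all regions.

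A further 5 H3K27ac regions of the TMOD3 locus were called in all 10 lists. An intronic region 11.8 to 18.4 kb from the start, chr15:52133672-52140218, fell in the RAD21 line at 1 h. Its percentile there was 95.5 and 96.8 at 0 h and 75.7 and 75.8 at 1 h, and in WT 63.6 and 73.3 at 0 h, 80.2 and 86.4 at 1 h and 87.3 and 88.3 at 10 h. The change in the RAD21 line was -1.34 ± 0.137 (adjusted p = 3.38e-05, limma), but ranked by peak width it was -0.074 and not called (adjusted p = 0.790, limma). At 1 h the RAD21 line was lower than WT by -0.47 ± 0.137 (adjusted p = 0.0427, limma), the second of which was lost when either WT 10 h list or any one RAD21 list was left out (adjusted p of 0.0624 to 0.201, limma). The intronic region 43.2 kb from the start had percentiles of 69.0 and 75.4 at 0 h and 94.4 and 93.0 at 10 h in WT. The RAD21 line had it at 72.4 and 78.3 at 0 h and 83.2 and 83.0 at 1 h, a change of 0.40 ± 0.143 that missed the threshold (adjusted p = 0.0520, limma). The region 38.0 kb from the start (percentiles of 40.1 to 80.9 over the 10 lists), one at an annotated U6 gene 77.1 kb from it (15.8 to 58.5) and the promoter shared by LEO1 and MAPK6 140.6 kb from it (67.0 to 79.6) passed neither test. The other 7 of the 14 regions were each called in 1 list, at percentiles of 6.16 to 34.0.

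**Figure D2:**
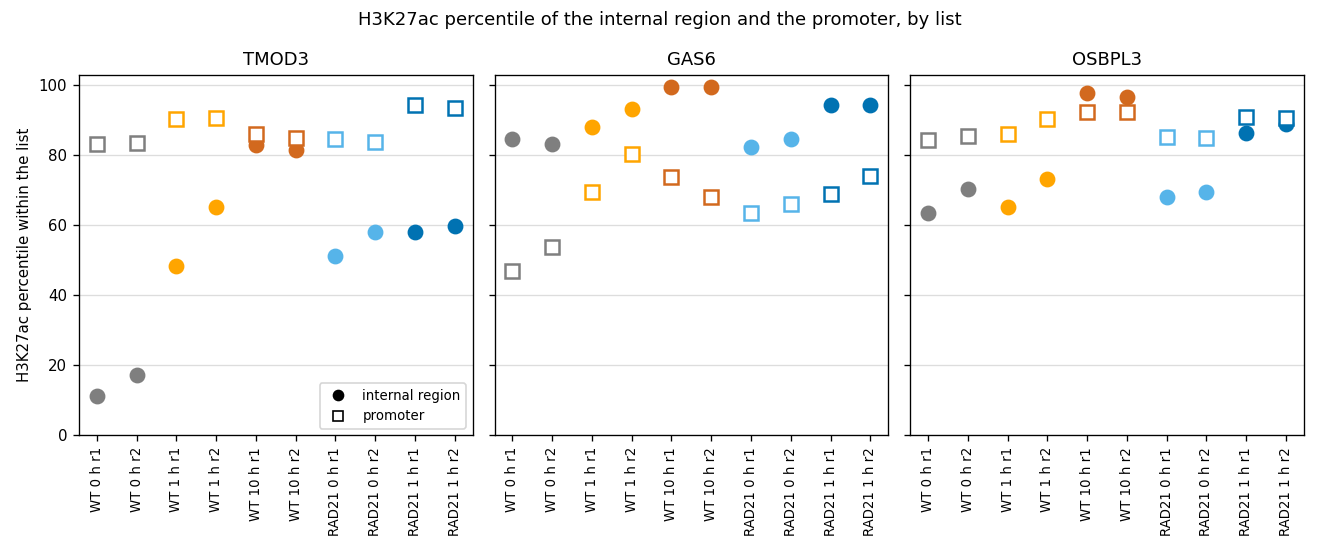
Percentile of the lead region and of the promoter region of TMOD3, GAS6 and OSBPL3 in each of the 10 H3K27ac lists, grouped by line and hours of Nutlin-3a, with 1 point per list. The TMOD3 lead region goes from 11.3 and 17.1 to 83.0 and 81.4 in WT, and the GAS6 lead region lies above its promoter in every list.

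At GAS6 the internal region was the stronger of the pair from the start and rose further. Its percentile in WT was 84.7 and 83.1 at 0 h, 87.9 and 93.1 at 1 h and 99.5 and 99.5 at 10 h. The RAD21 line had 82.4 and 84.8 at 0 h and 94.5 and 94.5 at 1 h. The 2 lists at 10 h thus held it among the strongest regions, and the 2 RAD21 lists at 1 h lay above both WT lists of that time. Its −log10 p was 106 and 135 at 0 h and 429 and 826 at 1 h in the RAD21 line, and in WT 133 and 116 at 0 h, 122 and 212 at 1 h and 963 and 934 at 10 h. The median −log10 p of the common regions also moved, from 57.1 and 66.5 to 121 and 205 in the RAD21 line, and from 57.8 and 55.5 at 0 h to 53.5 and 71.2 at 1 h and 87.8 and 90.6 at 10 h in WT. The summits of the 10 lists lay within 91 bp of each other, as did those of the OSBPL3 lead region, whereas those of TMOD3 spanned 760 bp.

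The GAS6 promoter region, chr13:114562658-114568118, also covers the start of the divergent transcript GAS6-DT. Its percentile in WT was 46.8 and 53.8 at 0 h, 69.6 and 80.5 at 1 h and 73.7 and 68.0 at 10 h, and in the RAD21 line 63.6 and 66.1 at 0 h and 69.0 and 74.1 at 1 h. Among the common regions WT had it at 18.4 and 29.3 at 0 h and at 38.6 and 30.5 at 10 h, a fitted change of 0.32 ± 0.158. By percentiles within whole lists the lead region exceeded the promoter by 37.9 and 29.3 points in WT at 0 h, by 18.3 and 12.7 at 1 h and by 25.8 and 31.4 at 10 h. For the RAD21 line the excess was 18.8 and 18.6 points at 0 h and 25.5 and 20.4 at 1 h. On the score scale, which stretches the top of the list, the gap widened by 1.27 ± 0.245 in WT at 10 h, although the points within whole lists overlapped with those at 0 h.

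The GAS6 lead region rose in the RAD21 line by 0.78 ± 0.117 from 0 h to 1 h (adjusted p = 0.000412, limma), with both later lists above both earlier ones. Ranked by peak width in place of p-value the direction turned (-0.13, adjusted p = 0.878, limma). The promoter changed by 0.34 ± 0.158 and did not pass (adjusted p = 0.127, limma; 0.0406 with the 7 lists of one name form, where it passed), and the gap changed by 0.44 ± 0.245 (adjusted p = 0.222, limma). At 1 h the RAD21 line minus WT was 0.25 ± 0.117 at the lead region (adjusted p = 0.175, limma) and -0.29 ± 0.158 at the promoter (adjusted p = 0.240, limma). Without WT 1 h replicate 2 the lead region was higher in the RAD21 line by 0.36 and was called (adjusted p = 0.0189, limma), so that comparison rests on which WT list is used. In WT at 1 h the lead region changed by 0.33 ± 0.117 and the promoter by 0.92 ± 0.158.

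The GAS6 locus was also the one where most weak regions appeared. In the gene body away from promoters, the 0 h lists of WT called 3 and 2 regions, the 1 h lists 1 and 7, the 10 h lists 13 and 11, and the RAD21 lists 9 and 10 at 0 h and 6 and 8 at 1 h. WT 1 h replicate 1, with 1 region, shares the form of the peak names with the 0 h lists, and WT 1 h replicate 2, with 7, shares it with the rest. Peaks covered 7.70 and 6.98 kb of the locus in WT at 0 h, 29.3 and 28.2 kb at 10 h, and 20.9 and 23.0 kb in the RAD21 line at 0 h, beside the 31.0 and 30.7 Mb, 66.6 and 64.3 Mb, and 49.1 and 53.2 Mb that the same whole lists covered. At 10 h in WT 7 of the 28 regions were gained, meaning called in both 10 h lists and in neither 0 h list, beside 11.4% of all regions. All 7 were internal, 5.8 to 40.6 kb from the start, and 0 of them kept the call when peaks needed a −log10 q of at least 5. Those 37.1 and 40.6 kb from the start were missing only from the lists whose peak names lack the word input. Of the 28 regions 4, all among these 7, were called in both RAD21 lists at 0 h, before Nutlin-3a, and in neither WT 0 h list. Over all regions 5.29% had that pattern. The 7 lacked a call in the WT 0 h lists by definition. The share with RAD21 calls at 0 h among all regions gained in WT at 10 h was not taken.

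Regions outside the gene body were read in the same way. A region 48.1 to 51.3 kb upstream of the start, chr13:114615102-114618382, rose in the RAD21 line by 1.17 ± 0.145 (adjusted p = 0.000119, limma), with percentiles of 53.7 and 57.8 at 0 h and 78.9 and 79.2 at 1 h. In WT that upstream region was at 54.0 and 55.0 at 0 h, 60.8 and 77.0 at 1 h and 68.3 and 64.2 at 10 h. Among the common regions it was at 28.2 and 31.1 at 0 h and at 27.2 and 23.4 at 10 h, a fitted change of -0.13, so the higher percentiles at 10 h are not a rise among those regions. The promoter region of GAS6-AS1, the antisense gene, 43.8 kb from the GAS6 start, changed by -0.25 ± 0.137 in the RAD21 line (adjusted p = 0.193, limma). It passed when either WT 1 h list was left out of the fit (adjusted p = 0.0459 and 0.0479, limma). A region that reaches 34.2 kb upstream of the start was gained in the RAD21 line at 1 h, as 4.6% of all regions were, at percentiles of 58.8 and 51.4. WT held it in all 6 lists, at 22.1 to 51.7, so that it was missing from both RAD21 lists at 0 h beside WT, as 2.83% of all regions were. An internal region 27.9 kb from the start was called in both RAD21 lists at 1 h and in neither WT list of that time, as 3.23% of all regions were.

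At OSBPL3 the internal region passed the gene's own promoter at 10 h. Its percentile in WT was 63.6 and 70.5 at 0 h, 65.1 and 73.1 at 1 h and 97.7 and 96.8 at 10 h. The RAD21 line had 68.1 and 69.5 at 0 h and 86.3 and 89.1 at 1 h. The WT lists at 0 h and 1 h overlapped, and both 1 h lists of the RAD21 line lay above both 1 h lists of WT. Its −log10 p was 45.6 and 63.8 at 0 h, 48.8 and 66.3 at 1 h and 594 and 524 at 10 h in WT, and 41.0 and 44.2 at 0 h and 258 and 572 at 1 h in the RAD21 line, beside the list medians above.

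The OSBPL3 promoter region, chr7:25018326-25021970, had percentiles of 84.3 and 85.4 at 0 h, 86.0 and 90.2 at 1 h and 92.3 and 92.4 at 10 h in WT. The RAD21 line had 85.2 and 84.8 at 0 h and 91.0 and 90.7 at 1 h. Among the common regions WT had it at 75.2 and 77.5 at 0 h and at 82.0 and 83.1 at 10 h, a fitted change of 0.22 ± 0.108. The lead region was 20.7 and 14.9 points under the promoter in WT at 0 h, 20.9 and 17.1 under it at 1 h, and 5.38 and 4.42 points above it at 10 h. The RAD21 line placed it 17.1 and 15.3 points under the promoter at 0 h and 4.71 and 1.68 points under it at 1 h. In WT the order of the pair was therefore the same at 0 h and 1 h and had turned at 10 h in both lists.

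The lead region of OSBPL3 rose in the RAD21 line by 0.98 ± 0.128 from 0 h to 1 h (adjusted p = 0.000165, limma). Ranked by width that change was 0.54 and not called (adjusted p = 0.195, limma). The promoter rose by 0.39 ± 0.108 (adjusted p = 0.0173, limma), a call lost when any one of the 4 lists of the RAD21 line was left out (adjusted p of 0.0564 to 0.115, limma). The gap between them rose by 0.59 ± 0.181 (adjusted p = 0.0390, limma), close to the threshold, and with the replicate number as a block it was not called (adjusted p = 0.0522). It was also lost when either WT 10 h list or any one RAD21 list was left out (adjusted p of 0.0589 to 0.231, limma). At 1 h the lead region was higher in the RAD21 line than in WT by 0.80 ± 0.128 (adjusted p = 0.00286, limma), while the promoter differed by 0.11 ± 0.108 (adjusted p = 0.548, limma). The gap at 1 h was higher in the RAD21 line by 0.69 ± 0.181 (adjusted p = 0.0395, limma), beside 7.98% of pairs called, and was not called in the blocked fit (adjusted p = 0.0523) or with any list but WT 1 h replicate 2 left out (adjusted p of 0.0502 to 0.229, limma). The change in WT at 1 h was -0.03 ± 0.128 at the lead region and 0.12 ± 0.108 at the promoter. WT 1 h replicate 1 had the other form of peak names, and with the 7 lists of one form alone the lead region was still called in both contrasts.

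The other OSBPL3 regions moved less. The region 150.6 to 160.5 kb from the start, within the gene, had percentiles of 75.6 and 67.0 at 0 h, 62.0 and 76.8 at 1 h and 93.4 and 92.6 at 10 h in WT, and of 75.6 and 80.7 at 0 h and 84.2 and 78.1 at 1 h in the RAD21 line. Its change in the RAD21 line was 0.17 ± 0.152 (adjusted p = 0.428, limma). The region 70.6 kb from the start, at the pseudogene SNRPCP19, changed by 0.30 ± 0.151 (adjusted p = 0.162, limma). In WT 2 of the 13 regions were gained at 10 h, beside 11.4% of all regions. They lay 11.5 and 13.1 kb from the start, next to the lead region. Both kept the call at the stricter peak threshold, for which no share over all regions was taken. The one 13.1 kb from the start was also called in WT 1 h replicate 2 (percentile 31.3) and in both RAD21 lists at 0 h (45.9 and 43.1). It was missing only from the lists whose peak names lack the word input. In WT at 10 h 1 region was lost, at the promoter of GSDME, which encodes a gasdermin, 222.3 kb from the start, where 1.9% of all regions were lost. A region that reaches 45.5 kb upstream of the OSBPL3 start was gained in WT at 1 h (1.51% of all regions) and missing from both RAD21 lists at 1 h (1.15%).

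**Figure D3:**
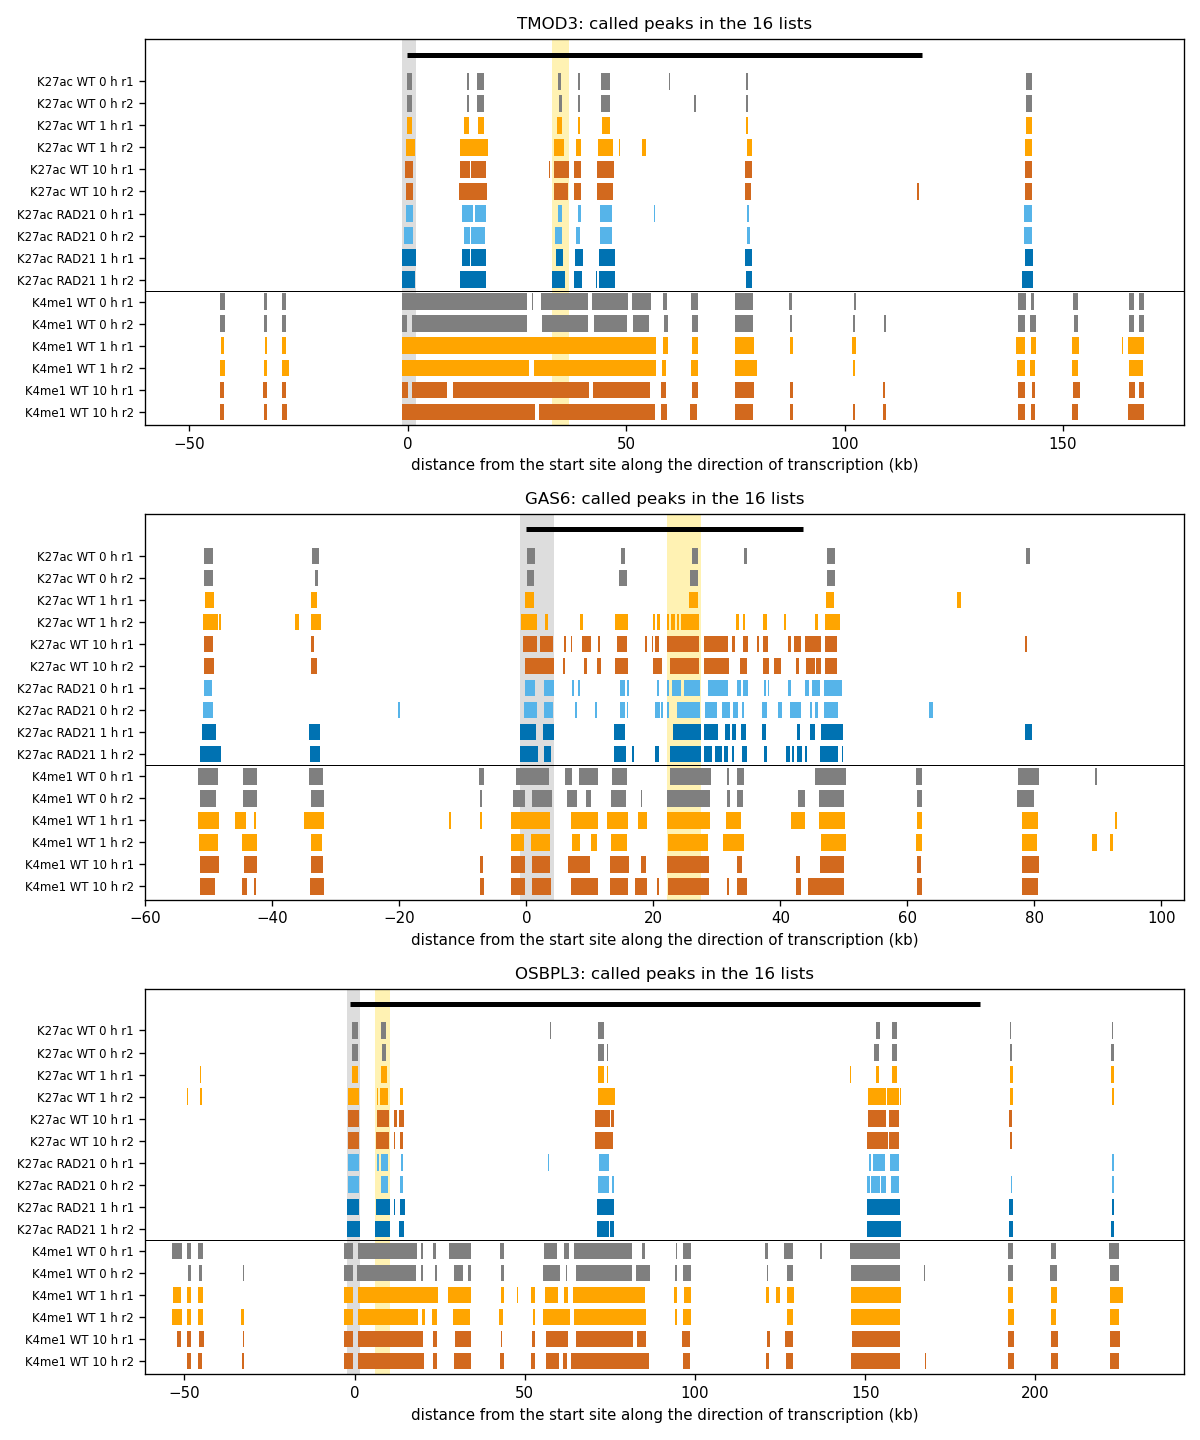
Called H3K27ac and H3K4me1 peaks of the 16 lists across the 3 loci, drawn by distance from the transcription start site in kb, with 1 row per list, the gene body as a black bar, the promoter region shaded grey and the lead region shaded yellow. At GAS6 the WT 10 h rows of H3K27ac hold 13 and 11 internal regions and the WT 0 h rows 3 and 2.

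Over the 3 loci, 15 H3K27ac regions were called in all 10 lists and entered the fit. From 0 h to 1 h in the RAD21 line 5 of the 15 rose and 1 fell, namely the lead regions of GAS6 and OSBPL3, the promoters of TMOD3 and OSBPL3 and the upstream GAS6 region, against the intronic TMOD3 region 11.8 kb from the start. The background for these counts is the 14.4% and 13.4% above, and the median change was 0.34 over the 15 and 0.0374 over all regions. Against WT at 1 h the RAD21 line was higher in 1 of 15, the OSBPL3 lead region, and lower in 1, the same intronic TMOD3 region, where 5.68% of all regions were called higher and 6.16% lower. The median difference was 0.14 over the 15 and 0.00444 over all regions. Without WT 1 h replicate 1 the TMOD3 region at the U6 gene (1.26, adjusted p = 0.0161, limma) and the GAS6-AS1 promoter (-0.64, adjusted p = 0.000712, limma) were called too, and without WT 1 h replicate 2 the upstream GAS6 region (0.51, adjusted p = 0.0198, limma). Ranked by fold in place of p-value, 0 of the 18757 regions were called by limma in either contrast, with 2667 and 3304 at an unadjusted p under 0.05, so none of these calls holds on that scale. Ranked by peak width none of the 6 regions called in the RAD21 line at 1 h was called either (adjusted p of 0.116 to 0.878, limma). At 10 h in WT, the contrast that chose the genes, 5 of 7 TMOD3 regions, 3 of 4 GAS6 regions and 4 of 4 OSBPL3 regions had a change above 0. Each count includes the lead region, which was picked for its rise, so that part was fixed in advance. The share of all regions above 0 was not taken, and their median change was -0.04.

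**Figure D4:**
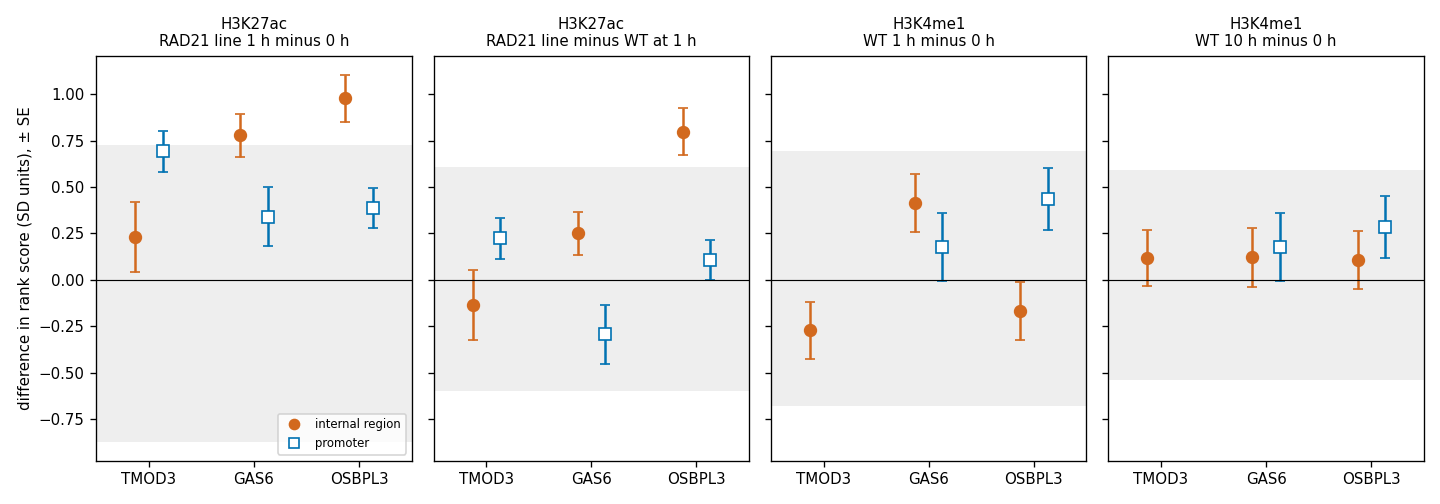
Fitted rank change on the normal score scale, with its SE, at the lead regions (filled circles) and promoters (open squares) for the contrasts that could be tested, with the 5th to 95th percentile of all regions shaded in grey. For the RAD21 line at 1 h the lead regions of GAS6 (0.78) and OSBPL3 (0.98) lie above that span and the lead region of TMOD3 (0.23) within it.

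H3K4me1, which the choice of genes had not used, was already high at the lead regions before treatment and moved little. The H3K4me1 region over the TMOD3 lead region, chr15:52120477-52178813, was 58.3 kb wide and also took in the promoter, so no gap could be formed for TMOD3. Its percentile was 95.3 and 95.1 at 0 h, 91.9 and 93.0 at 1 h and 95.3 and 96.7 at 10 h. The fitted change was -0.27 ± 0.153 at 1 h (adjusted p = 0.412, limma) and 0.12 ± 0.153 at 10 h (adjusted p = 0.901, limma). The peaks there covered the whole H3K27ac lead region in all 6 lists, at 0 h too, when the H3K27ac peak covered at most 23.0% of it.

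The H3K4me1 region at the GAS6 lead, chr13:114537940-114544889, had percentiles of 99.0 and 98.4 at 0 h, 99.5 and 99.7 at 1 h and 98.7 and 99.3 at 10 h. It changed by 0.41 ± 0.158 at 1 h (adjusted p = 0.222, limma) and by 0.12 ± 0.158 at 10 h (adjusted p = 0.904, limma). At the GAS6 promoter the percentile was 81.0 and 75.2 at 0 h, 80.8 and 86.1 at 1 h and 79.1 and 84.4 at 10 h. The values at 10 h thus overlapped with those at 0 h at both GAS6 sites. The gap between lead and promoter changed by 0.24 ± 0.259 at 1 h (adjusted p = 0.727, limma) and by -0.06 ± 0.259 at 10 h (adjusted p = 0.983, limma). Of 20837 such pairs 0 were called by limma at 1 h (0%, with 2919 at an unadjusted p under 0.05) and 0.0528% at 10 h.

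The H3K4me1 region over the OSBPL3 lead, chr7:24995169-25018963, had percentiles of 94.9 and 93.7 at 0 h, 92.5 and 93.0 at 1 h and 96.1 and 94.2 at 10 h. Its change was -0.17 ± 0.158 at 1 h (adjusted p = 0.654, limma) and 0.11 ± 0.158 at 10 h (adjusted p = 0.916, limma). The promoter region had 77.3 and 78.0 at 0 h, 88.2 and 88.1 at 1 h and 83.0 and 84.7 at 10 h. Both later times lay above 0 h in both lists, but the changes of 0.43 ± 0.168 at 1 h (adjusted p = 0.226, limma) and 0.28 ± 0.168 at 10 h (adjusted p = 0.696, limma) did not pass.

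Of the 36 H3K4me1 regions of the 3 loci called in all 6 lists, 0 were called by limma at 1 h, where 0.595% of all regions were, and 0 at 10 h, where 0.638% were. At an unadjusted p under 0.05 there were 5 at 1 h and 2 at 10 h. With so few calls over all regions the absence of a call says little about a single region. An internal OSBPL3 region 51.8 kb from the start was the 1 H3K4me1 region gained at 1 h (3.3% of all regions) and at 10 h (2.63%). The 1 region lost at 10 h (2.28%) lay 93.8 kb from the OSBPL3 start. The lead regions were not among them.

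**Figure D5:**
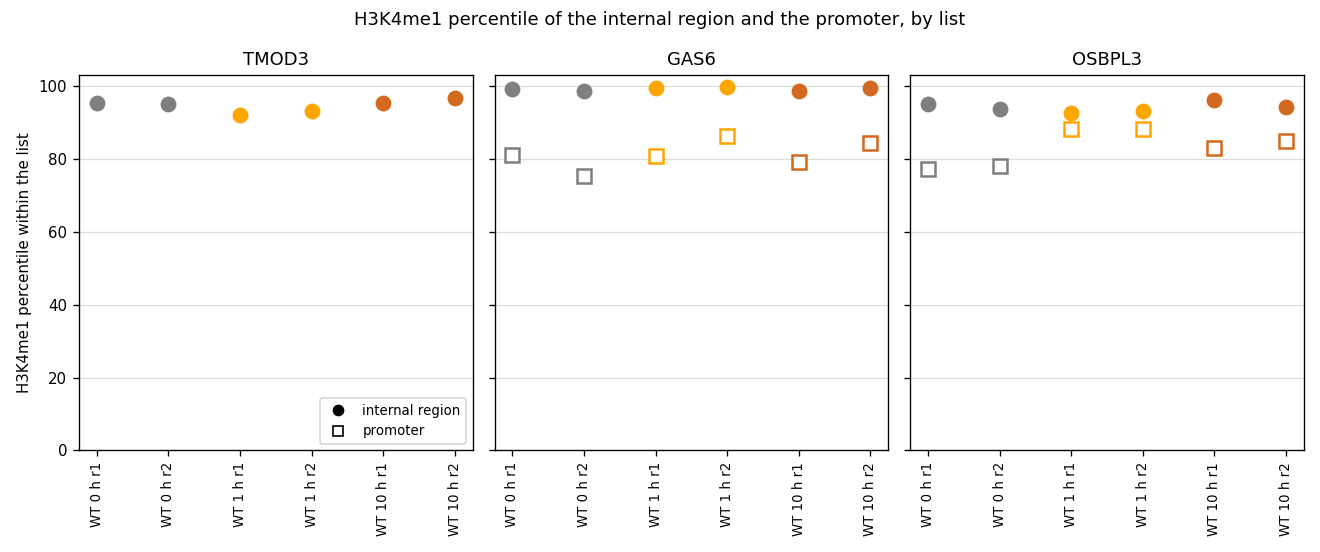
Percentile of the H3K4me1 regions over the lead and promoter regions of the 3 genes in each of the 6 WT lists, by hours of Nutlin-3a, with 1 point per list. The regions over the leads lie at 91.9 to 99.7 in every list, and for TMOD3 lead and promoter are the same region.

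Promoter H3K27ac was also read for genes that work with the 3 proteins, from lists of partners and relatives. Of 10 genes for actin pointed-end proteins and tropomyosins 5 entered the fit, and TPM1, which encodes a tropomyosin, fell in WT at 10 h by 0.70 ± 0.213 (adjusted p = 0.0367, limma). No promoter of the list was called in that contrast with a term for the form of the peak names, without the trend, or without either WT 0 h list, WT 10 h replicate 2 or either RAD21 1 h list. In WT at 1 h the changes were already -0.70 ± 0.213 at TPM1 and -0.60 ± 0.125 at TPM3. TPM1 changed by -0.59 ± 0.213 in the RAD21 line at 1 h (adjusted p = 0.0530, limma). TPM4 fell in the RAD21 line at 1 h by 1.06 ± 0.208 (adjusted p = 0.00243, limma), and none of the list was called there by fold or width. At 0 h TPM4 was higher in the RAD21 line than in WT by 1.21 ± 0.208. The difference at 1 h was -0.06 ± 0.208 (adjusted p = 0.872, limma). No other of the 5 passed in WT at 10 h or in the RAD21 line at 1 h, and none passed between the lines at 1 h. TMOD1, the nearest relative in the fit, changed by -0.50 ± 0.264 in WT at 10 h (adjusted p = 0.200, limma).

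All 5 GAS6 receptors and partners entered the fit. The receptor gene TYRO3 fell in WT at 10 h by 0.51 ± 0.132 (adjusted p = 0.0195, limma) and rose in the RAD21 line at 1 h by 0.52 ± 0.132 (adjusted p = 0.0112, limma). It had also risen in WT at 1 h, by 0.53 ± 0.132. At that time the RAD21 line minus WT was -0.04 ± 0.132 (adjusted p = 0.872, limma). The call at 10 h was lost with the name-form term, with ranking by width and without any one WT 0 h or 10 h list. PROS1, which encodes protein S, a ligand of TYRO3 and MERTK, fell in the RAD21 line by 0.92 ± 0.119 (adjusted p = 0.000160, limma). At 0 h it was higher in the RAD21 line than in WT by 0.90 ± 0.119. The difference at 1 h was 0.11 ± 0.119 (adjusted p = 0.590, limma). Of the 2 calls in the RAD21 line from 0 h to 1 h, 1 was left without RAD21 0 h replicate 2 or either RAD21 1 h list. AXL, a further receptor gene, had changes of 0.39 ± 0.173 in WT at 10 h (adjusted p = 0.126, limma) and 0.03 ± 0.173 in the RAD21 line (adjusted p = 0.922, limma). Of 11 promoters of the oxysterol-binding-protein family 0 were called by limma in WT at 10 h, with 2 at an unadjusted p under 0.05. OSBPL2 rose in the RAD21 line at 1 h by 0.55 ± 0.161 (adjusted p = 0.0215, limma) and OSBPL5 by 0.44 ± 0.151 (adjusted p = 0.0450, limma), and at 1 h OSBPL2 was higher in the RAD21 line than in WT by 0.70 ± 0.161 (adjusted p = 0.0153, limma). OSBPL2 had changed by -0.47 ± 0.161 in WT at 1 h. The RAD21 line minus WT at 0 h was -0.32 ± 0.161 at OSBPL2 and -0.63 ± 0.151 at OSBPL5. For OSBPL5 the difference at 1 h was -0.13 ± 0.151 (adjusted p = 0.613, limma). Both calls from 0 h to 1 h were lost without the trend and without RAD21 0 h replicate 2 or either RAD21 1 h list, 1 was lost without either WT 0 h or WT 10 h list, and the call against WT was lost without either RAD21 1 h list. The background for the calls in all 3 gene lists in WT at 10 h was 9.7% of regions called higher and 8.56% lower. For the RAD21 line at 1 h against 0 h it was 14.4% higher and 13.4% lower. For the RAD21 line against WT at 1 h it was 5.68% higher and 6.16% lower. The median change in WT at 10 h was 0.04 for the actin list, -0.21 for the GAS6 partners and -0.17 for the oxysterol-binding proteins, beside -0.04 over all regions.

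The regions with the profile nearest to each lead region over the 10 lists were found by the root mean square difference of scores. For TMOD3 they were a region 37824 bp from the BBC3 start (0.44) and one in MCC (0.46). BBC3 encodes PUMA, a pro-apoptotic protein. For GAS6 they were at HGFAC (0.18) and DCUN1D3 (0.27), and for OSBPL3 in TBC1D22A (0.28) and at ABL2 (0.38). These are descriptions over lists that include those used to choose the genes.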

How the data were processed

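Peak lists of 16 ChIP-seq libraries (10 for H3K27ac, 6 for H3K4me1) were analysed. Groups and replicate numbers came from the sample titles. Peak names inside some lists carry another replicate number, so the replicate block rests on the titles alone. Per the labels and the study's methods, the authors mapped reads to GRCh37.p13 with Bowtie2 2.3.2 after Trim Galore 0.6.6, and called peaks per library with MACS2 2.2.7.1 against an input. The control behind the H3K27ac lists whose peak names lack the word input could not be checked. The deposited fold of a peak is the authors' ratio of pileup to local background. Columns of −log10 p-values and of −log10 q-values are deposited as the authors' peak caller wrote them. The integer display score, 1 of the columns deposited by the authors, was not used. No read counts were used, so depth is unknown, and the number of peaks per list (31640 to 49127 for H3K27ac, 84492 to 92943 for H3K4me1) stands in its place.

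Regions are unions of the peaks of one mark that overlap or touch in any list. Normal scores of the within-list rank by −log10 p were fitted with limma 3.58.1 (lmFit, eBayes with trend, R 4.3.3), 1 fit per mark without covariates, Benjamini-Hochberg over all regions, called at an adjusted p under 0.05. A promoter is any 1000 bp before and 200 bp after a GENCODE basic transcript start. Gaps were the score of an internal region minus that of the promoter of the same gene (3370 pairs for H3K27ac, 20837 for H3K4me1). The local background was recovered from fold and p-value by the Poisson formula of the peak caller. Scripts were tested on simulated data. With 2 lists per group the smallest exact permutation p is 0.333, so none was run.

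The members, the lists of partner genes (actin pointed-end and tropomyosin, GAS6 receptors and partners, oxysterol-binding proteins) and the epithelial and mesenchymal markers were chosen with earlier results of these data known. For each gene the lead internal region, the promoter and the H3K4me1 regions over them were named, then regions called in a tested contrast or gained or lost. Other regions named with values, and the motif searched, were chosen after the values were seen. A further motif search is not reported here. Contrasts with the WT 0 h H3K27ac lists are described without a test at the 3 loci. Alternatives were rank by fold or width, a −log10 q of at least 5, peaks trimmed to 500 bp, another promoter width, another window, a term for the form of the peak names, a replicate block, no trend, each list left out, and, chosen after seeing the data, the 7 lists of one name form and each line fitted on its own lists.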

Additional observations from a re-analysis of the deposited data

Results flagged for a closer look

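Of the 15 H3K27ac regions of the 3 loci called in all 10 lists, 3 had opposed directions at 1 h. In these, every list at 1 h moved one way from 0 h in WT and the other way in the RAD21 line. The share of all regions with that pattern was not taken, so the count is a description only. The difference between the 2 lines was not tested, and the WT changes use the 0 h lists that chose the genes. At TMOD3 the intronic region 11.8 kb from the start changed by 0.554 in WT at 1 h and by -1.34 in the RAD21 line. The TMOD3 region 77.1 kb from the start, at an annotated U6 gene, changed by -0.939 in WT and by 0.481 in the RAD21 line. The promoter region of GAS6-AS1, 43.8 kb from the GAS6 start, changed by 0.535 in WT and by -0.249 in the RAD21 line. Of the 3 changes in the RAD21 line the one of -1.34 was called (limma), and that of -0.249 was called with a WT 1 h list left out, with the name-form term and with the 7 lists of one name form. In WT, 1 of the 1 h lists and both 0 h lists have the high local background given in the report, and its part in these values was not tested.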

How the results depend on the processing

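In the RAD21 line at 1 h the rises of the GAS6 and OSBPL3 lead regions were called with a −log10 q of at least 5, trimmed peaks, the name-form term, the block, no trend, the 7 lists of one name form, the 4 RAD21 lists alone and each list left out. Ranked by fold they were not called (0.97, adjusted p = 0.154, and 0.94, adjusted p = 0.142, limma), nor was OSBPL3 against WT at 1 h (0.87, adjusted p = 0.170). That ranking called 0 regions in both contrasts (unadjusted p under 0.05 in 2667 and 3304), 9 and 1 gaps, and for H3K4me1 4 regions at 10 h, 6 at 1 h and 0 gaps at 10 h. It gave OSBPL3 gaps of 0.53 and 0.32, WT 10 h leads of 2.12 at GAS6 and 1.41 at OSBPL3, and -0.047 for the TMOD3 H3K4me1 region at 10 h.

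Ranked by width, 325 and 177 regions and 48 and 1 gaps were called, and for H3K4me1 0 regions at 10 h (4012 unadjusted), 1 at 1 h and 0 gaps. The RAD21 change was then -0.13 at the GAS6 lead, 0.54 at the OSBPL3 lead and -0.11 at its promoter, and 0.62 at the TMOD3 promoter, -0.074 at the TMOD3 region 11.8 kb from the start and 0.87 at the upstream GAS6 region, none called. RAD21 minus WT at 1 h was 0.0404 at the TMOD3 lead, 0.45 at the OSBPL3 lead, 0.72 at the GAS6 promoter and 0.80 at the GAS6 region 43.8 kb from the start. Gaps were -0.17 and -0.21 at GAS6, 0.65 and 0.39 at OSBPL3, and 0.53 at GAS6 in WT at 1 h, and WT 10 h leads 2.07 at TMOD3 and 0.87 at OSBPL3. The H3K4me1 values at 1 h were 0.12 (TMOD3), -0.070 (GAS6), 0.10 (OSBPL3) and -0.0455 (OSBPL3 promoter), with gaps of -0.0806 (GAS6), 0.055 (OSBPL3) and, at 10 h, 0.0119 (OSBPL3).

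The name-form term gave 823 called regions in WT at 10 h, 7840 and 3716 in the tested contrasts and 1003 gaps, leads of 2.39 at TMOD3 and 1.38 at GAS6 in WT at 10 h, and an OSBPL3 gap against WT of 0.72 (adjusted p = 0.0514). The 7 lists of one name form gave 3439 regions, 1006 gaps and the same gap (0.72, adjusted p = 0.0564). Trimmed peaks gave 153 gaps. A −log10 q of at least 5 dropped the TMOD3 lead from the fit, since its WT 0 h peaks were weaker, and left 42 and 131 H3K4me1 regions at 10 h and 1 h and 0 gaps. Without the trend 0 H3K4me1 regions (4922 and 8490 unadjusted) and 0 gaps were called, and the OSBPL3 gaps were not (0.59, adjusted p = 0.0603; 0.69, adjusted p = 0.0620). At the stricter peak threshold the loci gained 2 regions in place of 9 in WT at 10 h, 0 in place of 1 at 1 h, and 3 in place of 5 for the RAD21 line against WT at 0 h. The 1 region lost against WT at 1 h, the H3K4me1 regions gained at 1 h and 10 h and the 1 lost at 10 h went to 0. The cause of these shifts was not tested.

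Leaving out 1 list at a time, the called regions ranged from 766 to 6620 (WT 10 h), 2395 to 7866 (RAD21 line) and 389 to 5529 (RAD21 against WT), the gaps from 204 to 1004 and 3 to 587, and for H3K4me1 5 to 379, 19 to 183 and 0 to 1. The OSBPL3 lead ranged from 1.43 to 1.72 in WT at 10 h, and RAD21 minus WT at 1 h from -0.29 to 0.0146 at TMOD3 and 0.14 to 0.36 at GAS6 (turned or called without WT 1 h replicate 2). The OSBPL3 gaps ranged from 0.49 to 0.69 and 0.59 to 0.79 and lost the call without either RAD21 1 h or 0 h replicate, among others. The H3K4me1 value of OSBPL3 at 10 h ranged from -0.0145 to 0.23 and its gap from -0.16 to 0.13.

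Replicate numbers did not pair the lists: same-numbered deviations correlated at -0.0501 to 0.0452 for H3K27ac and 0.00084 to 0.00739 for H3K4me1. With the replicate block the OSBPL3 gaps kept their values and lost the call (0.59, adjusted p = 0.0522; 0.69, adjusted p = 0.0523), 0 H3K4me1 gaps were called at 10 h (1718 unadjusted), and no other called value named at the loci changed side.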
